A study of Mus musculus with 36 samples.

Results

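In all, 10 genes of hepatic de novo lipogenesis were followed across 12 ages of mouse liver. They were Acly, Acaca, Acacb, Fasn, Me1, Scd1, Scd2, Elovl6, Thrsp and Pnpla3, taken by symbol from the deposited expression table, so that 10 of its 21889 symbols are described here. Of these, 9 reached a mean of 1 FPKM in at least one age and were tested among 11149 genes, and Pnpla3 did not. FPKM counts fragments per kilobase of transcript, scaled to the mapped fragments of the library, and is already divided by length, so levels of different genes can be set side by side. Livers came from 36 male C57BL/6 mice (C57BL/6J in the study's methods), 3 at each age, drawn from several litters and given no treatment. The ages were GD17.5 (late gestation, labelled Day -2) and Day 0, which lies between birth and the first milk, then Days 1, 3, 5, 10, 15 and 20 during suckling, and Days 25, 30, 45 and 60 after weaning onto standard chow at 21 days. Each mouse gave 1 library, and the same replicate number at different ages is not the same animal.

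De novo lipogenesis builds fatty acids from carbohydrate. Citrate leaves the mitochondrion and is split by ATP citrate lyase (Acly) into acetyl-CoA, which acetyl-CoA carboxylase (Acaca, cytosolic, and Acacb, at the mitochondrial surface) turns into malonyl-CoA, and fatty acid synthase (Fasn) joins these units with NADPH, part of it from malic enzyme (Me1). Elovl6 lengthens palmitate, the stearoyl-CoA desaturases Scd1 and Scd2 insert a double bond, Thrsp (Spot 14) is a thyroid hormone and carbohydrate responsive regulator of the pathway, and Pnpla3 is a lipid droplet protein. Milk is rich in fat and chow in carbohydrate, and the adult liver is known to express the pathway strongly when carbohydrate is eaten.

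The members lie on 7 chromosomes of NCBI37/mm9 in the GENCODE M1 annotation. Acly (chr11:100337667-100389314, minus strand), Acaca (chr11:83943174-84215153, plus strand) and Fasn (chr11:120667254-120685492, minus strand) share chromosome 11. Scd2 (chr19:44368166-44381354, plus strand) and Scd1 (chr19:44468941-44482199, minus strand) are both on chromosome 19. Acacb is at chr5:114596544-114700770 (plus), Me1 at chr9:86474970-86589947 (minus), Elovl6 at chr3:129235304-129341413 (plus), Thrsp at chr7:104561448-104566240 (minus) and Pnpla3 at chr15:83998246-84019942 (plus).

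Promoters of 8 of the 10 members were in the RefSeq promoter sequences used here (GRCm38.p6, another build than that of the expression table), and those of Scd1 and Scd2 were not matched. The 250 bases before each start were searched on both strands for TCACNCCAC (a sterol regulatory element), CACGTG (an E-box), CCAAT (bound by NF-Y) and GGGCGG (a GC box). None of these 4 strings contains another. Me1 has 2 starts, so the 8 members gave 9 windows. CCAAT was found in 5 of the 9 (Fasn, Thrsp, Acacb, the second start of Me1 and Pnpla3), against 33.8% of all 32851 promoters. GGGCGG was found in 3 of 9 (Acly, the first start of Me1 and Pnpla3), against 32.7%. TCACNCCAC and CACGTG were in none of the 9 windows and in 1.05% and 6.02% of all promoters. The sequences below are those of 4 members that rose together at weaning and hold at least 1 match. They are written 5′ to 3′ on the gene's strand, ending at the base before the start, with matches to any of the 4 strings in capitals.
Fasn (chr11:120824548-120824797, minus): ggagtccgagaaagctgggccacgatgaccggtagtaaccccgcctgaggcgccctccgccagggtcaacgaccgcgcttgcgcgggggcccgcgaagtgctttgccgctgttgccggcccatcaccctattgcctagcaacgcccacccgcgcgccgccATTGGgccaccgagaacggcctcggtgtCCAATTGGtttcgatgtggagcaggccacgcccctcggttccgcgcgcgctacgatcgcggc
Thrsp (chr7:97417551-97417800, minus): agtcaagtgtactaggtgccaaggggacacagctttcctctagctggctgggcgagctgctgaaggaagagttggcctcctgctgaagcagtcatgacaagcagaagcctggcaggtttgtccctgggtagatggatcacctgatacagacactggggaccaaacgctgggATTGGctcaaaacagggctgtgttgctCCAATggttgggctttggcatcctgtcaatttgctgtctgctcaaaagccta
Acacb (chr5:114165268-114165517, plus): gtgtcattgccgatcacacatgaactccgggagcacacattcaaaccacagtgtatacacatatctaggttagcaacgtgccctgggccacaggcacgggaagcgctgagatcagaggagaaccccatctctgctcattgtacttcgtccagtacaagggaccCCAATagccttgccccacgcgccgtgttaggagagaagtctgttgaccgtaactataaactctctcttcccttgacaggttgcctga
Acly (chr11:100528001-100528250, minus): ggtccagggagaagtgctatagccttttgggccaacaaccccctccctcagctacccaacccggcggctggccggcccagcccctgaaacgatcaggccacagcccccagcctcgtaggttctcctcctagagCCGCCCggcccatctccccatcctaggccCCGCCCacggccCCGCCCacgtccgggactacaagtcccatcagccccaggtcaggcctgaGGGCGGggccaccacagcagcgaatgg
Fasn held 3 CCAAT matches, 90, 62 and 59 bases before the start, the last pair overlapping on opposite strands. Thrsp held 2, at 79 and 52 bases, and Acacb 1, at 87 bases. Acly held 4 GC boxes, at 117, 88, 76 and 27 bases. A match describes the letters only, and the lack of one says only that these letters are not in this window.

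Summed FPKM per mouse was between 353712 and 450597, and Pearson's r between replicates across genes was at least 0.971. The values carry no counts. From the spacing of low values, library depth was estimated at about 82.9 M fragments per library, 0.899 to 1.1 of that in single libraries. Of the low values, 58.4% came within 0.1 of whole fragments, where evenly spread values would give 20%. The size of 1 fragment was set from these same values, which raises the share, so it does not test the depth. Counts were not rebuilt. Hepatocyte markers were present at every age, with 7 markers summing to 7415 to 8908 FPKM at GD17.5 and 34993 to 79002 FPKM from Day 0 on. Summed erythroid markers (8 of 9 listed in the table) fell from 127289 to 185255 FPKM at GD17.5 to 2492 to 4502 at Day 15 and 649.9 to 714 at Day 60, and 5 cell division markers from 187 to 238 FPKM to 0.642 to 1.1. In whole liver, a smaller share of a cell type and less RNA per cell cannot be told apart, and FPKM is relative to all RNA of the library. Of 8 adipocyte markers, only 2 passed the filter, and Lep was at 0 in the 3 mice of each of 10 ages. The 8 together summed to 15.7 to 27.7 FPKM at Day 5 and 2.84 to 7.27 at Day 60. At Day 0 their sum was 21.5 FPKM in mouse 1 and 10.7 and 7.76 in mice 2 and 3. The part of adipocytes in the levels of the members was not tested. Mouse 1 of Day 0 stood apart. Its 5 skeletal muscle markers summed to 1130.2 FPKM against 4.37 and 4.08 in mice 2 and 3, and results that rest on it are given without it as well. To a smaller degree mouse 1 of Day 10 differed too, with muscle markers at 75.6 FPKM against 7.18 and 1.15 in mice 2 and 3. Its erythroid markers summed to 4157 FPKM against 18679 and 13208. The part of these differences in its member levels was not tested. The sum of 5 exocrine pancreas markers was uneven within ages. It was 12838 FPKM in mouse 1 of Day 60, 4035 in mouse 3 of Day 0, 3643 in mouse 2 of Day 20, 3091 in mouse 3 of Day 15 and 3030.3 in mouse 1 of Day 45, at most 1075 in each other mouse, and 0.235 to 0.923 in the mice of Day 25. Its part in the results was not tested.

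**Figure D1:**
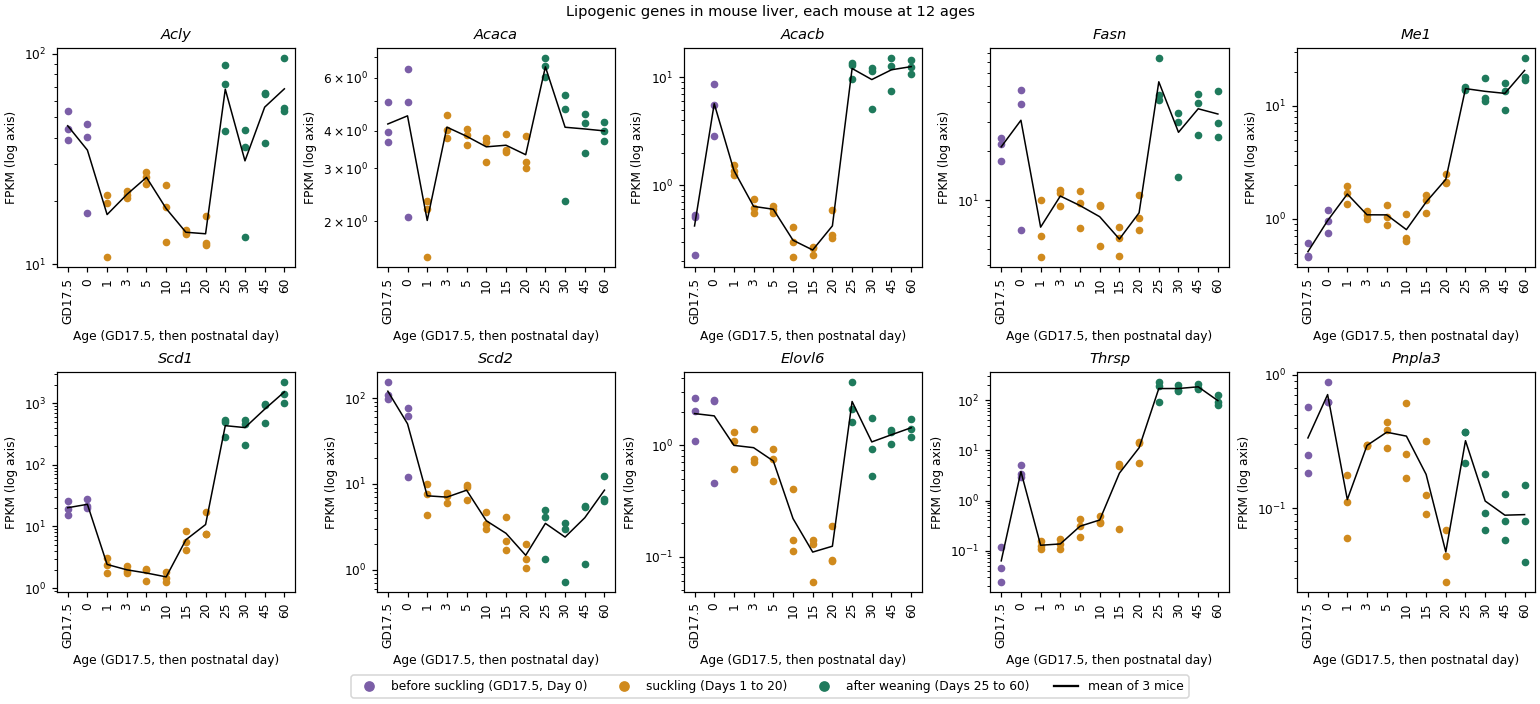
Level of each member in FPKM (log axis) in each of 3 mice (points) at 12 ages, with the mean as a line. Fasn, Acly and Acacb are low from Day 1 to Day 20 and high from Day 25, Scd1 and Thrsp cover the widest ranges, and Scd2 is highest at GD17.5.

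The members differed widely in range. The highest age mean over the lowest was 2972-fold for Thrsp, 1002-fold for Scd1, 81.9-fold for Scd2, 49.9-fold for Acacb, 40.2-fold for Me1, 22.4-fold for Elovl6, 15.1-fold for Pnpla3, 9.26-fold for Fasn, 4.88-fold for Acly and 3.23-fold for Acaca. The lowest age mean fell within suckling for 8 of the 10, namely Acly, Acaca, Acacb, Fasn, Scd1, Scd2, Elovl6 and Pnpla3, and at GD17.5 for Me1 and Thrsp. The highest age mean was before suckling for Scd2 (GD17.5) and Pnpla3 (Day 0) and after weaning for the other 8. Suckling holds more of the ages than either other window. The shares of all genes with their lowest or highest mean in each window were not computed, so these counts have no background. The genes that carry most FPKM changed with age. At GD17.5 Scd2 led with 121 FPKM, before Acly with 45.6 and Fasn with 21.2. At Day 60 Scd1 led with 1524 FPKM, before Thrsp with 98.5 and Acly with 68.2.

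To ask how the pathway compares before suckling, during suckling and after weaning, the mean of Days 1 to 20 was set against that of GD17.5 and Day 0, and the mean of Days 25 to 60 against both. Differences are in log2(FPKM + 1), a scale that makes changes of low genes look smaller, and come from limma over all 36 mice with Benjamini-Hochberg adjustment over 11149 genes, at a threshold of 0.05. During suckling, 6 of the 9 tested members were lower than before it (Scd2, Scd1, Fasn, Acly, Acacb and Elovl6), while 40.7% of all tested genes were lower. Me1 was higher, as were 27% of genes. After weaning, 8 of 9 were higher than during suckling and none was lower, where 11.7% of all genes were higher and 68.1% lower. At an unadjusted p under 0.05 the count of lower members was also 0. The median difference was 2.02 over the 9 members and -0.39 over all genes, or -0.13 over all genes after upper quartile scaling of the libraries. After weaning against before suckling, 5 members were higher (Thrsp, Scd1, Me1, Acacb and Fasn, with 20.1% of all genes higher) and Scd2 was lower (61.9% of all genes lower). The median of all genes was -0.49 there and -0.10 for suckling against before it. In the fit without a filter on low values, Pnpla3 was lower after weaning than before suckling (-0.39 ± 0.06, limma adjusted p = 1.96e-06 over 18601 genes) and lower during suckling than before it (-0.31 ± 0.06, adjusted p = 4.54e-05). Its difference of -0.08 ± 0.04 between suckling and after weaning had an adjusted p of 0.0996.

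**Figure D2:**
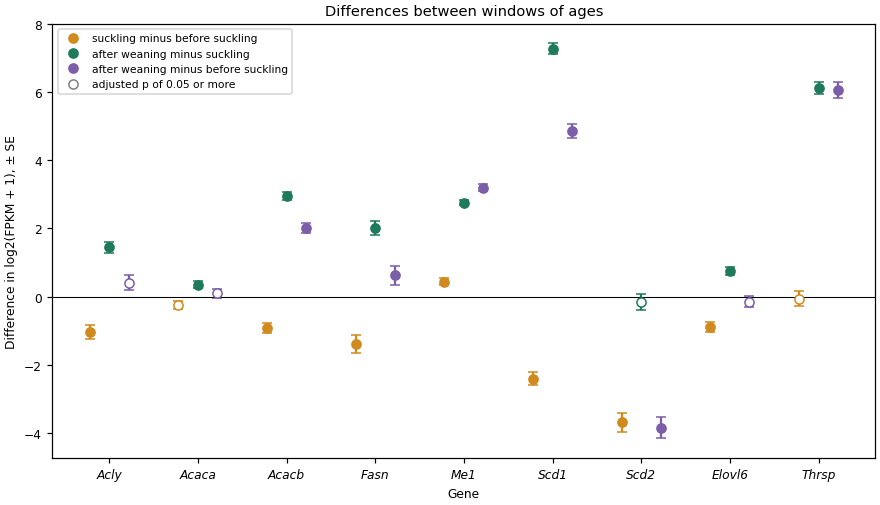
Difference in log2(FPKM + 1) between windows of ages for the 9 tested members, with SE as error bars and open points where the adjusted p was 0.05 or more. After weaning minus suckling is above 0 for each gene but Scd2 (-0.16), and Scd2 alone lies far below 0 after weaning against before suckling (-3.85).

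Acly, which makes cytosolic acetyl-CoA, was lower during suckling than before it and after weaning. Its level reached 53.6 FPKM in the 6 mice before suckling (median 42.4), 10.8 to 27.5 in the 18 suckling mice (median 19.2) and 13.5 to 95.8 in the 12 mice after weaning (median 54.5). These ranges overlapped, through mouse 1 of Day 0, which lay inside the suckling range, and mouse 1 of Day 30 (13.5 FPKM). The suckling mean was 1.05 ± 0.20 (SE) log2 units under that before suckling (limma adjusted p = 4.73e-05), and the mean after weaning 1.45 ± 0.16 above it (adjusted p = 3.27e-09). After weaning against before suckling the difference was 0.40 ± 0.22 and did not pass (adjusted p = 0.0929). It did pass with upper quartile scaling (0.95, adjusted p = 6.15e-05), with TPM scaling (0.55, adjusted p = 0.0373), and with any of mice Day 0 2, Day 25 2 or Day 30 1 left out (0.47 to 0.53).

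The 2 acetyl-CoA carboxylases differed. Acaca, the cytosolic enzyme that commits acetyl-CoA to synthesis, moved least of all members. It was at 2.07 to 6.39 FPKM before suckling, 1.52 to 4.51 during suckling and 2.34 to 6.97 after weaning, with medians of 4.47, 3.63 and 4.41 FPKM. The rise after weaning was 0.35 ± 0.10 log2 units (limma adjusted p = 0.00184), and the difference between suckling and before it, -0.25 ± 0.12, did not pass (adjusted p = 0.0698), although it did without mouse 1 of Day 0 (-0.44, adjusted p = 0.000489) or mouse 1 of Day 30 (adjusted p = 0.0389). Acacb, whose malonyl-CoA restrains fatty acid entry into mitochondria, was at 0.215 to 1.54 FPKM in suckling mice and at 5.03 to 15.1 after weaning, with no overlap (2.95 ± 0.11, adjusted p = 1.84e-19). Before suckling its pair of ages lay far apart, with 0.505, 0.524 and 0.228 FPKM at GD17.5 and 2.87, 5.57 and 8.6 FPKM at Day 0, and the mean of both was above that of suckling (suckling lower by 0.93 ± 0.14, adjusted p = 1.9e-06). The mean level of Acacb was above that of Acaca at Day 0 (5.68 ± 2.87 against 4.48 ± 2.2 FPKM, n = 3) and from Day 25 on, and below it at the other ages.

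Fasn, which assembles palmitate, was at 6.52 to 47.1 FPKM before suckling (median 23.2), 4.45 to 11.5 during suckling (median 8.46) and 13.8 to 74.7 after weaning (median 36.9), so that no mouse after weaning overlapped with a suckling mouse (2.02 ± 0.20, limma adjusted p = 3.98e-10). When the 12 age means of Fasn were put in order, from 53.3 FPKM at Day 25 down to 5.76 at Day 15, no age differed from the next in order at an adjusted p under 0.05, the largest gap being GD17.5 (21.2 FPKM) over Day 3 (10.6 FPKM, adjusted p = 0.0819). The call of Fasn as higher after weaning than before suckling (0.62 ± 0.27, adjusted p = 0.0376) rested on few mice. It was lost without mouse 1 of Day 0 (0.20, adjusted p = 0.386), which held 6.52 FPKM against 39.1 and 47.1 in mice 2 and 3, and with each of 8 other single mice left out, and in the fit without a filter (adjusted p = 0.0552). Me1, a source of NADPH, did not share the dip. It was at 0.456 to 1.19 FPKM before suckling, 0.631 to 2.49 during suckling and 9.08 to 26.5 after weaning. Its suckling mean was 0.44 ± 0.10 log2 units above that before suckling (adjusted p = 0.000354), and the rise after weaning was 2.76 ± 0.08 (adjusted p = 1.89e-22), with each of the 12 mice above each of the 18.

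Scd1, the main desaturase of adult mouse liver, and Scd2, the form known from the fetus, newborn and brain, followed different courses. Before suckling Scd1 was at 15.1 to 27.4 FPKM and Scd2 at 12 to 153. Both then fell. In the suckling mice Scd1 was at 1.27 to 16.9 FPKM (median 2.16) and Scd2 at 1.06 to 9.86 (median 4.58), which for Scd2 lay below each mouse before suckling. The suckling means were lower by 2.41 ± 0.20 for Scd1 (limma adjusted p = 8e-12) and by 3.69 ± 0.28 for Scd2 (adjusted p = 2.39e-12). After weaning Scd1 was at 207 to 2179.6 FPKM (median 529), above each earlier mouse, and Scd2 at 0.726 to 12.4 (median 4.55), a range that overlapped that of suckling and passed it at both ends. Scd1 was 7.27 ± 0.16 log2 units higher after weaning than during suckling (limma adjusted p = 2.07e-25) and Scd2 differed by -0.16 ± 0.23 (adjusted p = 0.517). After weaning against before suckling the values were 4.86 ± 0.21 for Scd1 (adjusted p = 8.57e-19) and -3.85 ± 0.30 for Scd2 (adjusted p = 1.45e-12).

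The share of Scd2 in the sum of Scd1 and Scd2 FPKM was 85.8% ± 0.896 (SD, n = 3) at GD17.5 and 61.9% ± 21.2 at Day 0. During the first days of suckling it was 74.3% ± 5.53 (Day 1), 78% ± 1.26 (Day 3), 82.8% ± 0.579 (Day 5) and 70.8% ± 1.19 (Day 10). The share had dropped to 29.8% ± 2.89 by Day 15 and 12.6% ± 2.21 by Day 20, before weaning, and was 0.459% to 0.752% over the 4 ages after weaning. At each age from GD17.5 to Day 10, each mouse had more Scd2 than Scd1 with the exception of mouse 1 of Day 0 (37.5%), and from Day 15 on each mouse had more Scd1. The mean log2 ratio of Scd2 to Scd1, with 1 added to each, was 1.64 before suckling, 0.37 during suckling and -7.07 after weaning. The last pair differed by -7.43 (two-sided exact permutation test over 10 age means, p = 0.00476, the smallest that 210 splits allow). Ages are ordered points of a single time course. Any course whose ages after weaning all lie below those of suckling gives this p-value, so it cannot place the change at weaning. The sum of both genes was lowest at Day 10 (5.25 ± 1.22 FPKM), after 141 ± 34.1 FPKM at GD17.5, and reached 1533 ± 604 FPKM at Day 60.

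**Figure D3:**
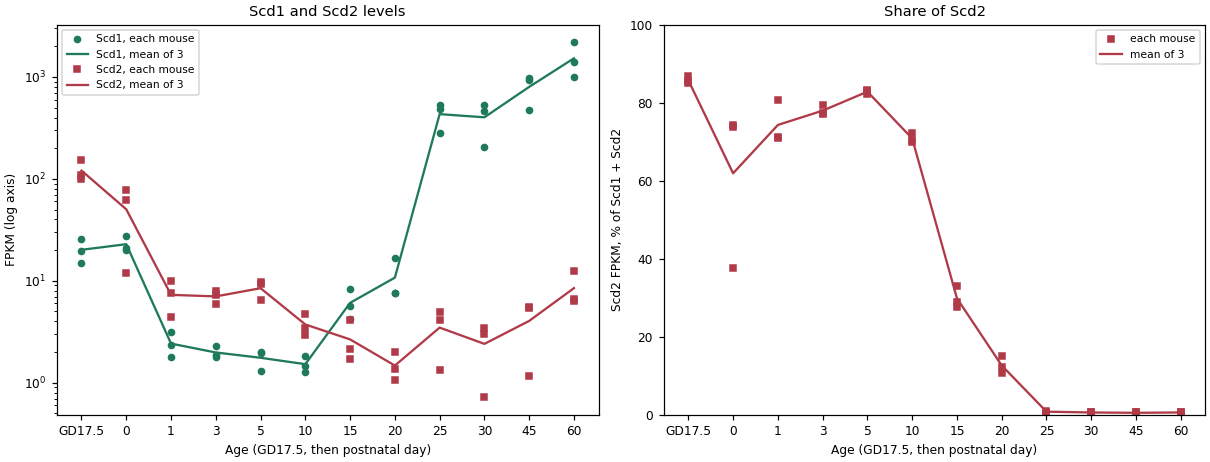
Left, Scd1 and Scd2 in FPKM (log axis) in each mouse with the mean of 3 as a line. Right, Scd2 as a percentage of Scd1 + Scd2, which passes from 70.8% at Day 10 to 29.8% at Day 15, 12.6% at Day 20 and under 1% on average at each age from Day 25.

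In the order of its age means, Scd1 had 3 gaps that passed the test, Day 30 (402 FPKM) over Day 0 (22.9 FPKM, limma adjusted p = 3.13e-11), GD17.5 (20.1 FPKM) over Day 20 (10.7 FPKM, adjusted p = 0.0184) and Day 15 (6.08 FPKM) over Day 1 (2.42 FPKM, adjusted p = 0.0121). For Scd2 only the highest ages stood apart, GD17.5 (121 FPKM) over Day 0 (50.3 FPKM, adjusted p = 0.00857) and Day 0 over Day 60 (8.47 FPKM, adjusted p = 0.000422). The paralogs share sequence. Of the 5354 windows of 100 bases in the Scd2 transcript, 48 were identical to Scd1 and 257 (4.8%) matched it with at most 2 mismatches, so some fragments fit both. At each of the 4 ages after weaning, Scd2 was lowest in the mouse in which Scd1 was lowest (at Day 45, Scd2 was at 5.56, 5.39 and 1.17 FPKM beside 983, 941 and 473 for Scd1). The same mice were lowest for many other genes, with 61.6%, 71.4%, 60% and 45.6% of all tested genes at Days 25, 30, 45 and 60. How far shared fragments enter the low Scd2 values after weaning was not tested. Scd2 was also high where erythroid and cell division markers were high, as given above, and the part of those cells in its level was not tested.

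Elovl6, which makes stearate from palmitate, was low at all ages. It was at 0.462 to 2.64 FPKM before suckling (median 2.26), 0.0596 to 1.39 during suckling (median 0.442) and 0.525 to 3.66 after weaning (median 1.4). Within suckling its age mean went from 0.996 FPKM at Day 1 to 0.11 at Day 15, a 9.07-fold range, so that the lowest values came late. It was lower during suckling than before (-0.90 ± 0.15, limma adjusted p = 5.07e-06) and higher after weaning than during suckling (0.75 ± 0.12, adjusted p = 1.59e-06). Its level after weaning did not differ detectably from that before suckling (-0.15 ± 0.16, adjusted p = 0.375) unless mouse 1 of Day 0 was left out (-0.36, adjusted p = 0.0172).

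Thrsp was nearly absent at GD17.5, with 0.024, 0.118 and 0.0456 FPKM, where 1 fragment was worth about 0.00945 FPKM. At Day 0 it was at 3.31, 2.88 and 5.13 FPKM, and at Day 1 at 0.125, 0.153 and 0.106 FPKM. It stayed between 0.106 and 0.483 FPKM to Day 10. After weaning its 12 mice were at 79.1 to 228 FPKM, against at most 14.5 in any earlier mouse (6.12 ± 0.18 over suckling, limma adjusted p = 1.77e-22). Its suckling mean did not differ detectably from that before suckling (-0.06 ± 0.22, adjusted p = 0.836). Pnpla3 stayed under 1 FPKM in each mouse. It was highest at Day 0 (0.622, 0.629 and 0.876 FPKM) and lowest at Day 20 (0.0689, 0.0439 and 0.0281 FPKM), and at Day 60 was at 0.0397, 0.0795 and 0.149 FPKM.

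Each age was then set against the age before it, to place the changes in time (limma, adjusted within each step over all 11149 genes). From GD17.5 to Day 0, Acacb (2.15 ± 0.25, adjusted p = 6.74e-08) and Thrsp (2.14 ± 0.38, adjusted p = 4.18e-05) rose and Scd2 fell (-1.58 ± 0.49, adjusted p = 0.00857), with 13.1% of all genes higher and 41.4% lower. Without mouse 1 of Day 0, Fasn was higher too (0.99, adjusted p = 0.0206) and the fall of Scd2 was not called (-0.77, adjusted p = 0.148).

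Over the first 24 h after birth, 7 of the 9 fell and none rose, where 7.88% of all genes fell and 23.7% rose. Over the same step 7 of 8 erythroid markers fell too, from a mean sum of 72417 to 29209 FPKM, and their part in the falls of the members was not tested. Scd1 fell by 2.81 ± 0.34, Scd2 by 2.33 ± 0.49, Thrsp by 2.05 ± 0.38, Fasn by 1.70 ± 0.44, Acly by 0.92 ± 0.35 and Acaca by 0.78 ± 0.21 on the log2 scale (limma adjusted p between 4.08e-07 and 0.0483), while the median of all genes rose by 0.19. Acacb fell from 2.87, 5.57 and 8.6 to 1.54, 1.23 and 1.34 FPKM (adjusted p = 0.000119). Scd1 went from 20, 27.4 and 21.2 FPKM at Day 0 to 3.11, 2.37 and 1.78 at Day 1, with no overlap. Fasn went from 6.52, 39.1 and 47.1 to 6.03, 9.96 and 4.45 FPKM, which overlapped through mouse 1 of Day 0. Me1 (0.44 ± 0.17, adjusted p = 0.0553) and Elovl6 (-0.41 ± 0.26, adjusted p = 0.224) did not pass, and Me1 was the single member higher at an unadjusted p under 0.05. Without mouse 1 of Day 0 the fall of Fasn was 2.55 ± 0.35 (adjusted p = 3.14e-06) and that of Elovl6, 0.83 ± 0.23, was called too (adjusted p = 0.00712). The call of Acly (adjusted p = 0.0483) was at the threshold and was lost under several alternatives, and those of Fasn and Acaca were lost without mouse 3 of Day 0 (adjusted p = 0.0658 and 0.0931). In the fit without a filter, Pnpla3 rose to Day 0 (0.36 ± 0.10, adjusted p = 0.00417) and fell to Day 1 (-0.61 ± 0.10, adjusted p = 4.94e-05).

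**Figure D4:**
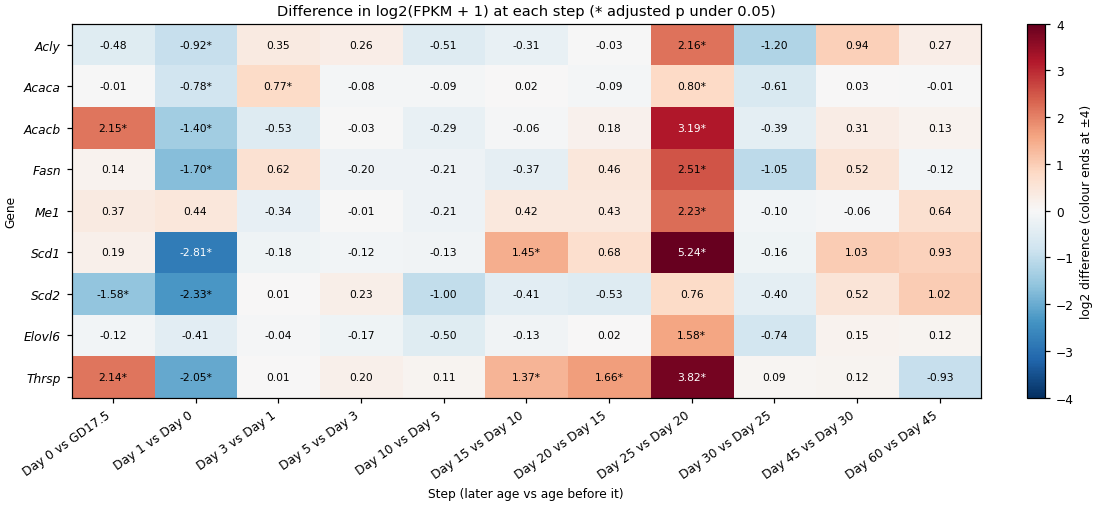
Difference in log2(FPKM + 1) of each of the 9 tested members between each age and the age before it, with the value printed in each cell and an asterisk at an adjusted p under 0.05. Calls gather at Day 1 vs Day 0 (7 lower) and Day 25 vs Day 20 (8 higher).

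Within suckling few steps were called. From Day 1 to Day 3 Acaca rose by 0.77 ± 0.21 (adjusted p = 0.0171), while 8.22% of all genes rose and 3.09% fell. None of the 9 was called from Day 3 to Day 5 or from Day 5 to Day 10, by limma or at an unadjusted p under 0.05. Of all genes, 1.09% rose and 2.12% fell from Day 3 to Day 5. Between Day 5 and Day 10, 1.88% of all genes rose and 34.4% fell. From Day 10 to Day 15 Scd1 (1.45 ± 0.34, adjusted p = 0.00405) and Thrsp (1.37 ± 0.38, adjusted p = 0.0172) rose, with 1.52% of all genes higher and 10.5% lower. Scd1 was at 1.84, 1.45 and 1.27 FPKM at Day 10 and 8.33, 5.68 and 4.22 at Day 15, all 3 above all 3. Thrsp was at 0.379, 0.483 and 0.364 FPKM at Day 10 and 0.273, 5.35 and 4.92 at Day 15, where mouse 1 lay below the Day 10 mice. From Day 15 to Day 20 Thrsp was called as higher (1.66 ± 0.38, adjusted p = 0.0159), among 0.834% of genes higher and 1.16% lower. That call was lost without mouse 1 of Day 15 (0.90, adjusted p = 0.225), mouse 2 of Day 20 (1.44, adjusted p = 0.131) or mouse 3 of Day 20 (1.47, adjusted p = 0.14). Scd1 and Thrsp had risen at Day 15, before weaning, when the age means of Fasn (5.76 FPKM) and Acacb (0.251 FPKM) were the lowest of the 12.

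From Day 20 to Day 25, the step that spans weaning, 8 of the 9 rose and none fell, where 3.94% of all genes rose and 3.26% fell. At an unadjusted p under 0.05 the count of falls was also 0. The rises were 5.24 ± 0.34 for Scd1, 3.82 ± 0.38 for Thrsp, 3.19 ± 0.25 for Acacb, 2.51 ± 0.44 for Fasn, 2.23 ± 0.17 for Me1, 2.16 ± 0.35 for Acly, 1.58 ± 0.26 for Elovl6 and 0.80 ± 0.21 for Acaca (limma adjusted p between 3.28e-12 and 0.0172), with a median of -0.07 over all genes. Scd1 went from 16.9, 7.67 and 7.65 FPKM to 487, 283 and 525. Thrsp went from 5.54, 14.5 and 13.8 FPKM to 192, 228 and 93.8. For both, the Day 25 values lay far above the Day 20 mice.

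Fasn was at 10.8, 6.52 and 7.72 FPKM at Day 20 and 74.7, 41.2 and 43.9 at Day 25. Acacb was at 0.348, 0.322 and 0.59 FPKM and then at 13.5, 9.71 and 12.9. Me1 was at 2.13, 2.49 and 2.07 FPKM and then at 14.7, 13.8 and 14. For each of the 8 risen members, the 3 mice of Day 25 lay above the 3 of Day 20. Their calls as higher make this separation likely, and the share of all genes that separate so was not computed. Scd2, at 2.01, 1.35 and 1.06 FPKM and then 4.94, 1.32 and 4.16, overlapped (0.76 ± 0.49, adjusted p = 0.444). The rise of Acaca (adjusted p = 0.0172) was not called without mouse 2 or 3 of Day 20 or mouse 1 or 3 of Day 25 (adjusted p = 0.0512 to 0.078), and in the fit without a filter that of Pnpla3 was 0.33 ± 0.10 (adjusted p = 0.0509). After Day 25 no step was called for any of the 9 members by limma, where 1.64%, 1.03% and 0.233% of all genes were called in order. At an unadjusted p under 0.05, 4 were lower from Day 25 to Day 30, 2 higher from Day 30 to Day 45, and 3 higher and 1 lower from Day 45 to Day 60. The share of all genes at that unadjusted threshold was not computed, so these counts have no background.

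Each age was also compared with Day 60, the reference age of the study. The number of the 9 members that differed was 5, 6, 7, 6, 6, 7, 8 and 8 at the 8 ages from GD17.5 to Day 20, then 1 each for Days 25 and 30. For Day 45 limma called 0, with 1 higher and 3 lower at an unadjusted p under 0.05. The share of all genes at that unadjusted threshold was not computed, so the unadjusted counts have no background. Over the same 11 ages in order, the share of all tested genes that differed was 75.1%, 63.9%, 65%, 66%, 65.4%, 46%, 27.4%, 15.9%, 7.42%, 3.56% and 0.233%. The members' count was highest at Days 15 and 20, where the share of all genes was 27.4% and 15.9%. From Day 1 on all calls were lower than Day 60, and at GD17.5 and Day 0 the single higher gene was Scd2.

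**Figure D5:**
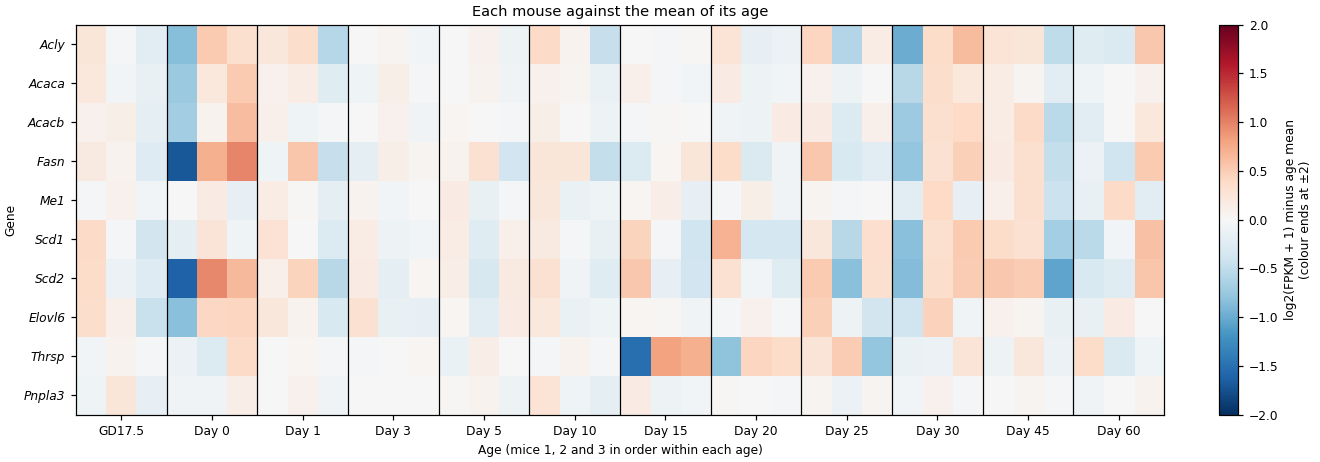
log2(FPKM + 1) of each member in each mouse minus the mean of its age (3 columns per age, mice 1 to 3 in order). Mouse 1 of Day 0 is low for 8 of 10 members, mouse 1 of Day 30 and mouse 3 of Day 45 for 10 of 10, and mouse 1 of Day 15 is low for Thrsp.

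Mice of the same age differed together. At Day 0 mouse 1 was the lowest of 3 for 8 of the 10 members, while it was the lowest for 33% of all tested genes. That mouse was also highest for 5 of 8 genes of fasting and fat oxidation, and for 40.7% of all tested genes. Its muscle markers are given above. At Day 30 mouse 1 was lowest for 10 of 10, and at Day 45 mouse 3 for 10 of 10, with 71.4% and 60% of all genes lowest in the same mice. At GD17.5 mouse 3 was lowest for 9 of 10 (35.8% of all genes), and at Day 10 mouse 1 was highest for 9 of 10 (54.5% of all genes). In the ages of the largest steps, mouse 3 of Day 1 was lowest for 9 of 10 (62.7% of all genes) and mouse 2 of Day 25 for 8 of 10 (61.6% of all genes). Within-age spread was wide for some members. At Day 30 Acly was at 13.5, 36.1 and 43.5 FPKM and Fasn at 13.8, 30.2 and 34.2 FPKM. The number of mice, 3 per age, limits what can be said of such differences, and their cause was not tested.

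Other genes of the pathway were counted for the steps at birth and weaning. Of all tested genes, 23.7% rose and 7.88% fell from Day 0 to Day 1. Between Day 20 and Day 25, 3.94% rose and 3.26% fell. Among 6 genes that supply NADPH, 3 rose from Day 20 to Day 25, led by Pgd of the pentose phosphate pathway, from 12.2 ± 2.63 to 38.5 ± 1.69 FPKM (1.60, limma adjusted p = 1.63e-08), with Tkt (1.04, adjusted p = 2.3e-05) and Taldo1 (0.70, adjusted p = 0.00471). G6pdx, the entry enzyme of that pathway, was at 2.42 ± 0.995 and 2.73 ± 0.882 FPKM (adjusted p = 0.77). With upper quartile scaling 4 of the 6 rose. Among 6 genes of citrate and acetyl-CoA supply, 2 rose, Acss2, which makes acetyl-CoA from acetate (11.5 ± 0.825 to 137 ± 36 FPKM, 3.43, adjusted p = 7.78e-09), and Slc25a1, the mitochondrial citrate carrier (55.2 ± 3.68 to 151 ± 26.1 FPKM, 1.42, adjusted p = 9.99e-07). The other 4, Cs, Pcx, Pdha1 and Dlat, lay between -0.09 and 0.29.

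Of 8 genes of sugar entry, none was called from Day 20 to Day 25 by limma (3 at an unadjusted p under 0.05, and 1 lower with upper quartile scaling). Pklr, the liver pyruvate kinase, was at 40.2 ± 9.4 FPKM at Day 20 and 58.9 ± 14.6 at Day 25 (0.54, adjusted p = 0.377). From Day 0 to Day 1, 4 of these 8 fell and 1 rose. Pklr fell from 94.3 ± 4.74 to 22.5 ± 12.1 FPKM (-2.15, limma adjusted p = 7.49e-06), with no overlap between the mice of these ages.

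Of 7 tested other elongases and desaturases, 5 rose from Day 20 to Day 25. They were Elovl3 (0.105 ± 0.0298 to 3.02 ± 0.614 FPKM, 1.85, limma adjusted p = 4.82e-07), Fads1 (1.33, adjusted p = 0.000774), Fads2 (1.19, adjusted p = 0.00988), Elovl1 (1.13, adjusted p = 2.83e-05) and Elovl5 (1.13, adjusted p = 0.018). Elovl3 reached 270.5 ± 130.1 FPKM at Day 60. Scd4 (0.36, adjusted p = 0.392) was at 0.0192 ± 0.00353 FPKM at Day 20, and Scd3, under the filter, was at 0.772 ± 0.247 FPKM at Day 60. Of 7 tested genes of glyceride synthesis 1 was called, and 4 at an unadjusted p under 0.05. This was Dgat2, which completes triglycerides and fell from 265 ± 35.2 to 165 ± 12.3 FPKM (-0.68, adjusted p = 0.0125). Gpam, the mitochondrial acyltransferase, was at 4.74 ± 1.66 and 13.3 ± 10.5 FPKM (1.01, adjusted p = 0.311).

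Among 17 tested regulators, 2 rose over the step at weaning. Mid1ip1, a paralog and partner of Thrsp, went from 9.28 ± 0.886 to 27.4 ± 10.2 FPKM (limma adjusted p = 3.49e-05), and Insig2, which holds sterol regulatory factors in the endoplasmic reticulum, from 29.6 ± 1.69 to 57.6 ± 4.53 FPKM (0.94, adjusted p = 0.0462). With upper quartile scaling 3 rose. The transcript of Srebf1, the lipogenic sterol regulatory factor, was highest at Day 15 (54.1 ± 7.23 FPKM), when Fasn was at its lowest mean, and was at 32.6 ± 5.03 and 24.7 ± 6.05 FPKM at Days 20 and 25 (-0.40, adjusted p = 0.483). Mlxipl, which encodes the carbohydrate response factor ChREBP, was at 7.02 ± 1.28 and 10.8 ± 5.19 FPKM (0.48, adjusted p = 0.457). These are RNA levels, and processing of the SREBP proteins was not measured. From Day 0 to Day 1, 3 regulators rose and 1 fell, near the shares of all genes (23.7% higher and 7.88% lower). The fall was that of Srebf1, from 15.8 ± 7.94 to 6.57 ± 1.47 FPKM (-1.03, limma adjusted p = 0.00576). With upper quartile scaling 2 regulators rose and 3 fell.

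Of 8 genes of fasting and fat oxidation, 5 rose from Day 0 to Day 1, and from Day 20 to Day 25, 4 fell and 1 rose. Among the falls were Igfbp1 (155 ± 53.5 to 19.4 ± 6.72 FPKM, -2.94, limma adjusted p = 8.34e-06), Pck1, the entry enzyme of gluconeogenesis (527 ± 74.5 to 97.3 ± 36.8 FPKM, -2.50, adjusted p = 0.0255), and Cpt1a, the malonyl-CoA sensitive gate of mitochondrial fat oxidation (74 ± 3.78 to 33.6 ± 13 FPKM, -1.19, adjusted p = 0.0162). Cpt2 rose (0.68, adjusted p = 0.000424). At Day 1 Cpt1a was at 153 ± 29.8 FPKM and Acacb at 1.37, and at Day 60 they were at 40.6 ± 1.62 and 12.5 FPKM. Over the same step at weaning no marker of the erythroid, macrophage, muscle or pancreas lists was called by limma (1 at an unadjusted p under 0.05, of the erythroid list), while Cyp2e1 of the hepatocyte, Pf4 of the other blood cell, Reln of the stellate and Stab2 of the endothelial markers fell (-1.08, -0.76, -1.29 and -0.82) and Ccnb1 and Cdk1 of the cell division markers rose (0.55 and 0.75). At an unadjusted p under 0.05 the count was 4 of 5 endothelial markers, whose median was -0.79 against -0.07 over all genes. It was 2 in each of the hepatocyte, other blood cell, stellate and cell division lists. The share of all genes at that unadjusted threshold was not computed. The part of these cells in the rise of the members was not tested.

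Outside the members, the 5 tested genes whose 12 age means ran most like those of each enzyme were ranked by Pearson's r of log2(FPKM + 1), as a description over ages that share their libraries. For Fasn they were Pmvk of the mevalonate pathway (r = 0.967), Acss2 (0.947), Aacs, which activates acetoacetate (0.932), Paox (0.929) and Rdh11 (0.901). For Scd1 they were Acss2 (0.974), Ugdh (0.949), 2200002D01Rik (0.948), Cib3 (0.948) and Hes6 (0.943). For Scd2 they were Hist1h2bl (0.970), Prr13 (0.965), Hist1h2bn (0.963), Hist1h2ae (0.961) and Hist1h2ak (0.960), of which 4 are histone H2A or H2B genes. Among the members, r with Fasn was 0.93 for Acly, 0.88 for Scd1, 0.87 for Acacb, 0.82 for Elovl6, 0.76 for Thrsp, 0.73 for Me1, 0.72 for Acaca and 0.18 for Scd2, and Scd1 and Scd2 had r = -0.12.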

How the data were processed

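Liver RNA of 36 mice was selected for poly-A, made into TruSeq libraries and sequenced as paired reads of 100 bases. The authors mapped the reads to NCBI37/mm9 with TopHat 1.2.0 and estimated abundance with Cufflinks 1.0.3 (versions from the submitters' processing notes), comparing transcripts with Ensembl annotation. They deposited 1 FPKM value per gene symbol and mouse, with no counts, and no scaling between libraries is named. FPKM was transformed to log2(FPKM + 1) and tested with limma 3.58.1 in R 4.3.3, with 1 mean per age over all mice, no covariate and a variance trend, for genes whose mean reached 1 FPKM at any age. P-values were adjusted by Benjamini-Hochberg within each comparison. The Scd2 to Scd1 ratio was compared by exact permutation over age means. Results were recomputed with a pseudocount of 0.1, without the filter, with a filter at 5 FPKM, upper quartile or TPM scaling, a replicate block, no variance trend, Dunnett comparison (multcomp 1.4.28) and each mouse left out. The fits were tested on simulated data. Python 3.11.15 with numpy 2.4.6, pandas 2.3.3 and scipy 1.17.1 was used for the other values and matplotlib 3.10.9 for figures.

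The genes named are the 10 members, the listed genes of the pathway that lead their list or carry a result, and the 5 genes most like Fasn, Scd1 and Scd2. The members and lists were chosen with earlier results of these data known. Positions were taken from GENCODE M1 by symbol, and promoters from RefSeq. Depth was estimated from the steps of low values, so intervals from counts are not given. Same-numbered mice of different ages are different animals, so the numbers do not pair mice. Their deviations from the age means still correlated at over 0.1 in 104 of 198 pairs (median 0.13). What mice of the same number share was not tested, and the main fit holds no term for it. Only spread between mice of an age enters the tests. Some genes of the lists enter the counts and are not reported here by name.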

Additional observations from a re-analysis of the deposited data

How the results depend on the processing

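The counts of members lower or higher in the window comparisons, the number of calls over all steps and against Day 60, and the Scd2 to Scd1 ratio kept their direction and stayed within 1.5 times their value under each alternative, with 1 exception. The count of members lower after weaning than before suckling was 1 (Scd2), and became 2 without a filter on low values, which adds Pnpla3 to the genes tested, and ranged from 1 to 2 with each mouse left out (2 without mouse 1 of Day 0, which adds Elovl6). No result reversed. With the replicate number as a block, the calls over all steps numbered 24 in place of 22 and those against Day 60 57 in place of 55, the additions over the steps including Me1 at Day 0 (0.37, limma adjusted p = 0.0388) and at Day 1 (0.44, adjusted p = 0.0274). The numbers do not pair the mice, so this is no paired design. Upper quartile scaling gave 64 calls against Day 60 and 25 over the steps. With each mouse left out, single members were checked in the window comparisons and the steps to Day 0, Day 1 and Day 25. Thrsp was also checked in the step to Day 20. Members whose call was lost there are named in the report. Me1 from Day 0 to Day 1, not called in the main fit, was called with some single mice left out (limma adjusted p = 0.035 to 0.0475). Calls of single members at the other steps and against Day 60 were not checked in this way. FPKM without counts, 3 mice per age and Elovl6, Pnpla3 and early Thrsp values near or under 1 FPKM limit the smallest changes that could be seen.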
